A study of Mus musculus with 32 samples.

Results

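The genes described here encode the proteins of the cytosolic ribosome, followed at the mRNA level in mouse macrophages. Members were the protein-coding genes of the count table whose symbols begin with Rpl or Rps and a number, plus Rpsa, Rplp0, Rplp1 and Rplp2. Rps6k kinases, Rps19bp1, pseudogenes and symbols with -ps were left out, and a member needed a total of at least 100 counts over the 32 libraries. Of 107 symbols that start in this way, 81 were members, 49 of the large and 32 of the small subunit, in a table of 24885 identifiers. Of the rest, 10 were Rps6k kinases, 7 carried -ps, 7 were under the count minimum, 1 was Rps19bp1 and 1 was not protein coding. The members just inside the minimum were Rps27 with 104 counts, Rpl30 with 146 and Rpl34 with 254. The nearest outside were Rpl32l with 82 counts and Rpl39l with 79, while Rpl26 had 2. Rpl30, Rpl34 and Rpl26 encode core proteins of the large subunit and Rps27 one of the small subunit, for which Rps27l is a paralog, and many members have near-identical copies elsewhere in the genome. How the counting treated reads that match several places is not given in the sources used here, so the levels of members with such copies are uncertain, and why these genes were nearly uncounted was not tested.

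The cells were bone marrow-derived macrophages, which grow from marrow progenitors under M-CSF, the growth factor that acts on the receptor encoded by Csf1r. They came from wild-type (WT) mice or from Trem2 knockout (T2KO) mice, the Trem2-/- line of Turnbull and colleagues, both labelled C57BL/6. TREM2 is a lipid-sensing receptor of macrophages and microglia. Each genotype was kept overnight in RPMI with 0.5% or 10% LCCM, and the labels call the media low and normal M-CSF; that LCCM is the M-CSF source and that low stands for 0.5% are inferences. Part of the cells received LPS, the bacterial lipopolysaccharide that acts through TLR4, at 10 ng/ml for 4 hours. The 8 groups were WT and T2KO cells in normal or low M-CSF, each with or without LPS, with 4 libraries in each. No label gives the age or sex of the mice or tells separate animals or cultures apart within a group, so p-values measure the spread between libraries, which may be technical.

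Ribosomal protein mRNAs belong to the 5′ TOP family: they start with a C followed by a run of pyrimidines, through which mTORC1 and the binding protein LARP1 set how strongly they are translated and how long they last. M-CSF and LPS both signal to mTORC1 in macrophages. The products are needed in fixed proportions and are usually made together, with Myc and ETS-family factors such as GABP among the regulators of their transcription.

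The bases around the annotated transcription start are shown for the 5 members with the largest fall and the 4 that rose in T2KO cells with LPS when M-CSF was low, the comparison with the most changed members; they were picked by their values there. Each run holds 10 bases before and 20 bases from the start, on the strand of the gene. The last 20 bases follow the annotated start, and where the 5′ UTR or the first exon ends was not looked up. At the second start of Rps24 they hold an ATG and may not all be 5′ UTR. Capitals mark a run of pyrimidines from its first C on, with at least 5 more pyrimidines after that C. The first C had to lie within 5 bases of the first transcribed base. Runs that began further upstream and crossed the start, as in Rpl14, Rpl7a and Rpl35, were not counted. Sequences are from RefSeq, build GRCm38.p6 (mm10), and Rps27l and Rps24 have 2 starts each among the promoter entries used. The annotated genes Rps27l, Rps2, Rpl18 and Rps9 begin further upstream than the windows shown, and starts there are not covered.
Rpl22l1: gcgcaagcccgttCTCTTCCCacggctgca
Rps2: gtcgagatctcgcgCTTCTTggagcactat
Rps27l first start: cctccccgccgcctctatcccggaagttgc
Rps27l second start: gggcttcagggtcactaacgggcctcgcag
Rps18: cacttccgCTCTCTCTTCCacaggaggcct
Rpl18: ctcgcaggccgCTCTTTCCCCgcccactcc
Rps9: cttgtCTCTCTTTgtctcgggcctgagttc
Rpl6: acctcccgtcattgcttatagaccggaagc
Rps24 first start: gctggggtCCTTCCTTgcgcgttgatatga
Rps24 second start: cgccgtagccatcatggtgagtctcctcgg
Rpl24: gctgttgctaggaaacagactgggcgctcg
These windows lie at chr3:28805498-28805527 (+ strand) for Rpl22l1, chr17:24720053-24720082 (+ strand) for Rps2, chr9:66946076-66946105 (+ strand) and chr9:66946403-66946432 (+ strand) for Rps27l, chr17:33955646-33955675 (- strand) for Rps18 and chr7:45718061-45718090 (+ strand) for Rpl18. Those of the members that rose lie at chr7:3704031-3704060 (+ strand) for Rps9, chr5:121204491-121204520 (+ strand) for Rpl6, chr14:24490668-24490697 (+ strand) and chr14:24490743-24490772 (+ strand) for Rps24 and chr16:55966265-55966294 (+ strand) for Rpl24. At the starts shown, 4 of the 5 members that fell most have the run and Rps27l does not. Of the 4 that rose Rps9, and Rps24 at its first start, have it and Rpl6 and Rpl24 do not, so the run is found on both sides. The promoter table had an entry for 61 of the 81 members. Of these 23 (37.7%) had the run as counted here, against 10.7% of 27025 genes with an entry, and starts crossed by a longer run are missing from both. The letters CCGGAAG, the core that ETS-family factors bind, were found on either strand of the 300 bases around the start in 24 of the 61 (39.3%) and in 9.93% of all genes. TATAAA was found in 7 members (11.5%) and in 15.7% of all genes, and CACGTG, the E-box that Myc binds, in 6 members (9.84%) and 8.09% of all genes. A match is a description of letters and not a test of binding.

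Trem2 itself was lower in every T2KO library than in any WT library of the same treatment. Means were 36.3 ± 4.96 against 305 ± 46.7 CPM (SD, n = 4; CPM are counts relative to library size scaled by TMM) in normal M-CSF and 5.88 ± 2.28 against 226 ± 26.2 with LPS. They were 115 ± 13.9 against 460.4 ± 70.1 in low M-CSF and 6.01 ± 2.31 against 332 ± 47.4 with LPS; the labels do not say which part of the gene is deleted. Reads from the 3′ end would check nothing if they lay outside it. Libraries held 3068863 to 15585423 counts. The 8 low M-CSF libraries with LPS held 3068863 to 6248835 counts, 4 of them below the range of the other groups. They detected 10799 to 11564 genes, against 11728 to 13314 in the other libraries. Their TMM factors, 0.598 to 0.752, were also below those of the others, which began at 0.903. The 10 macrophage markers summed to 4929 to 11390 CPM. Those of neutrophils (7 of 8 in the table) summed to 208 to 363 CPM in T2KO cells with low M-CSF and LPS and to 47.4 to 198 elsewhere, and monocyte markers (3 of 3) to 52.6 to 504 CPM. Dendritic, lymphocyte, erythroid, mast and stromal marker sums stayed at or below 22.2 CPM, with no count for Cd3g, Hba-a1 and Hbb-bs among others; the part of other cells in the results was not tested. In 6 of the 8 groups libraries 1 and 3, and 2 and 4, resembled each other: their counts of the members differed with a chi-square per degree of freedom of 4.92 to 19, against 28.8 to 462 for other pairs of those groups. In WT cells without LPS they did not. In low M-CSF libraries 2 and 4 were at 139, while library 4 was at 20 and 14.3 from libraries 1 and 3. In normal M-CSF libraries 1 and 3 were at 201, further apart than library 3 from 2 or 4 (107 and 87.6). The labels do not call them duplicates, so they were kept apart in the fits. Counts of members are also given with the libraries of these pairs summed in every group, which leaves 2 samples a group and in WT cells without LPS joins libraries that differ.

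The members' share of all counts was lowest on average in low M-CSF with LPS, with the smallest mean in T2KO cells. WT cells had 6.95 ± 0.620% (SD, n = 4) in normal M-CSF, 6.25 ± 0.578% with LPS, 5.96 ± 0.477% in low M-CSF and 4.19 ± 0.498% in low M-CSF with LPS. T2KO cells had 7.15 ± 0.483%, 6.30 ± 0.364%, 6.13 ± 0.564% and 3.06 ± 0.517% in the same order. The 4 T2KO libraries in low M-CSF with LPS, at 2.56, 3.27, 2.72 and 3.68%, lay below the 24 libraries from normal M-CSF or without LPS and overlapped the WT group at 3.93, 4.51, 3.63 and 4.71%. The summed counts of small over large subunit members had group means of 0.728 to 0.780 and lay between 0.646 and 0.831 in single libraries. In such bulk samples fewer cells of a type and less RNA per cell cannot be told apart.

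**Figure D1:**
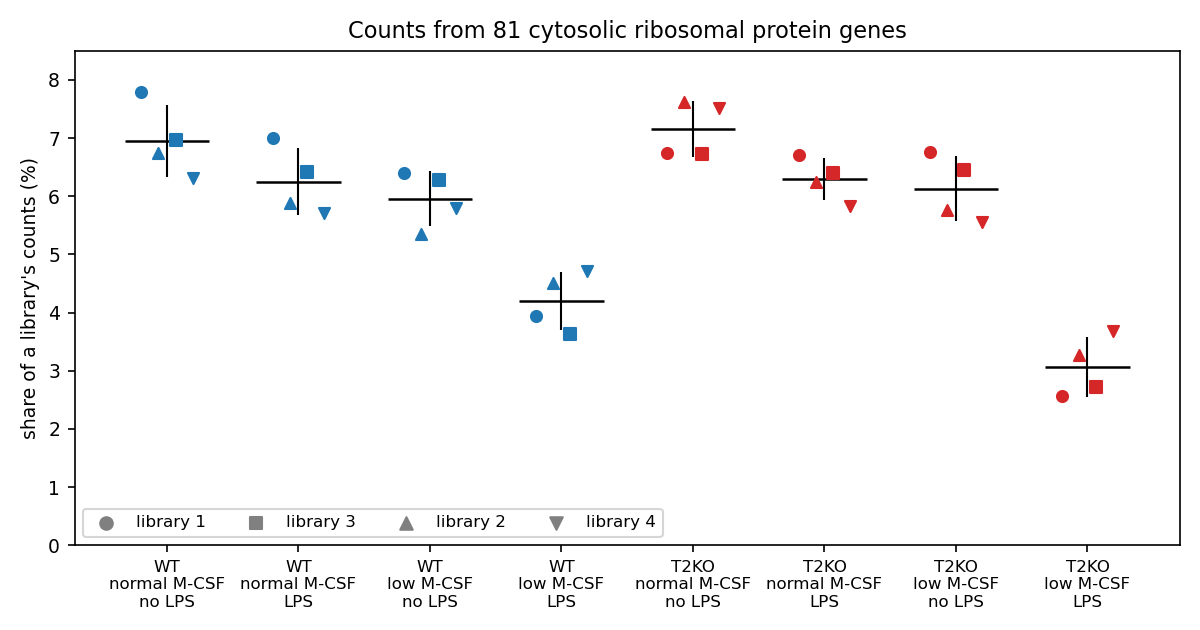
Share of each library's counts (%, vertical axis) that came from the 81 members, for the 8 groups of 4 libraries; lines are means ± SD and marker shapes give the library number. The groups in low M-CSF with LPS average 4.19% in WT and 3.06% in T2KO cells, and the other groups 5.96 to 7.15%.

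Low M-CSF lowered most members in T2KO cells that had received LPS. With LPS, 61 of the 79 members tested were lower and 4 higher in low than in normal M-CSF (edgeR quasi-likelihood test, Benjamini-Hochberg adjusted p under 0.05 over 11244 genes), while 32.8% of all genes tested were lower and 26.5% higher. The median member differed by -0.78 on the log2 scale and the median gene by -0.14, and in 57 members every low library was below every normal one, as in 27.6% of all genes, and in 2 every low library was above (23.2%). The fall covered both subunits, with 36 of 48 large subunit members lower (median -0.74) and 25 of 31 small subunit members (median -0.82). With libraries summed in pairs 42 members were lower and 0 higher, and those 42 were also lower with RLE factors, with library totals alone and in DESeq2. RLE factors left 51 lower and 4 higher, and library totals alone 73 lower and 0 higher. The median of all genes was 0.02 with RLE factors and -0.70 with library totals, so the 73 also hold a shift of all genes. The share of all genes called under these scalings is not given. In the same libraries neutrophil markers summed to 77.5 to 134 CPM in normal and 208 to 363 CPM in low M-CSF and macrophage markers to 8022 to 8870 and 10531 to 11047 CPM, and their part in the result was not tested.

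Rpl22l1, a paralog of Rpl22 that can take its place in the large subunit, had the largest fall. It stood at 70.8, 68, 70.7 and 58.9 CPM in normal and 13, 25, 17.4 and 26.2 CPM in low M-CSF, and fell by 1.74 ± 0.20 (SE) on the log2 scale (edgeR adjusted p = 4.58e-09). The groups were far apart, and among the low libraries 1 and 3 were the lowest. Rps2, which lines the path of mRNA into the small subunit, stood at 310.2, 292, 284 and 262 CPM against 97, 100, 90.6 and 117 CPM and fell by 1.51 ± 0.17 (edgeR adjusted p = 4.04e-09). Rps27l, the p53-inducible paralog of Rps27, had 468, 456, 491 and 483 CPM in normal and 205, 203, 179.8 and 193 CPM in low M-CSF, and fell by 1.28 ± 0.14 (edgeR adjusted p = 1.1e-09). In both genes the libraries of a group were close together, and no library of one group came near the other. Rps18, of the head of the small subunit, went from 1006 ± 41.7 to 423 ± 57.7 CPM (SD, n = 4) and fell by 1.25 ± 0.15 (edgeR adjusted p = 1.11e-08). Rpl18 went from 165 ± 17.6 to 71.2 ± 4.2 CPM (SD, n = 4) and fell by 1.21 ± 0.20 (edgeR adjusted p = 3.7e-06).

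By role, lower members were found in each list, where 61 of all 79 members and 32.8% of all genes were lower. The lists are parts of the members, so the counts below describe them and do not set a role apart. Of the stalk, which recruits the translation factors, Rplp0 fell by 0.86 ± 0.17, Rplp1 by 1.0 ± 0.14 and Rpl12 by 1.0 ± 0.18, while Rplp2 did not pass the test at 0.16 ± 0.17. Both partners of the 5S rRNA, which bind Mdm2 when they are free, were lower: Rpl11 fell by 0.85 ± 0.16 and Rpl5 by 0.39 ± 0.17. Along the mRNA path and in the head of the small subunit 6 of 8 members were lower, and Rps23 was among those not past the threshold, at -0.48 ± 0.28. Around the exit tunnel 4 of 7 were lower, and Rpl4, Rpl17 and Rpl31 did not pass. Among members mutated in Diamond-Blackfan anaemia 7 of 9 were lower, Rpl35a did not pass at -0.31 ± 0.15 and Rps24 was higher. Of members with roles described outside the ribosome 10 of 11 were lower, among them Rpl13a by 0.35 ± 0.14, which in complex restrains translation of inflammatory mRNAs, and Rpl38 by 1.18 ± 0.17; Rpl22 did not pass. Rps27a, made as a fusion with ubiquitin, fell by 0.62 ± 0.15. Among the 60 members with both a test and a promoter entry, 15 of 22 with the pyrimidine run as counted above and 32 of 38 others were lower. Their medians were -0.82 and -0.79, and the others include members whose run began further upstream.

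The 4 members that were higher in low M-CSF in these cells were Rpl24, which bridges the subunits, Rps24, Rpl6 and Rps9, and none of them passed with libraries summed in pairs. Rpl24 stood at 1193, 1322, 1026 and 1129.5 CPM in normal and 2539, 1251, 2271 and 1252 CPM in low M-CSF, a rise of 0.65 ± 0.19 (edgeR adjusted p = 0.00444), and with summed pairs the edgeR adjusted p was 0.067. Its low libraries 2 and 4 overlapped the normal group, and libraries 1 and 3 were well above it. Rps24 stood at 1859, 1605, 1571 and 1607 CPM against 1031, 3984, 1089 and 3669.7 CPM, so that libraries 1 and 3 lay below and 2 and 4 far above the normal group; the fitted rise of 0.56 ± 0.24 (edgeR adjusted p = 0.0467) was lost without low library 2 or 4, normal library 2, 3 or 4, WT normal LPS library 3 or 4, or WT low library 2 without LPS. Rpl6 stood at 1408, 1394, 1235 and 1272 CPM against 1953, 2229, 1529.5 and 1913 CPM, a rise of 0.52 ± 0.17 (edgeR adjusted p = 0.00919), and Rps9 at 1561, 1434, 1335 and 1391 CPM against 2158, 2022, 1732 and 1655 CPM, a rise of 0.40 ± 0.17 (edgeR adjusted p = 0.0371). The groups of these 2 genes did not overlap, but with library totals alone their differences turned to -0.03 and -0.15, and the rise of Rps9 was lost without low library 1 or 2 or normal library 2, 3 or 4.

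A further alternative, added after seeing the data, scaled the counts to the members' own sum. In this comparison 31 were then still lower and 7 higher, so the members also differed from each other. The scaling removes the change of that sum, in which abundant members weigh most. Rps24, Rpl24, Rpl6 and Rps9 are such members and were higher, at 0.98, 1.21, 1.02 and 0.92. Most members had negative differences, so part of a shared fall may remain in the 31. Shares of all genes on this scale are not given. On that scale the split was 15 lower and 3 higher in WT cells without LPS and in WT cells with LPS, and 18 and 5 in T2KO cells without LPS. For LPS it was 6 lower and 7 higher in WT cells in low M-CSF and 3 and 1 in T2KO cells in normal M-CSF. Between genotypes in low M-CSF with LPS it was 5 lower and 2 higher.

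**Figure D2:**
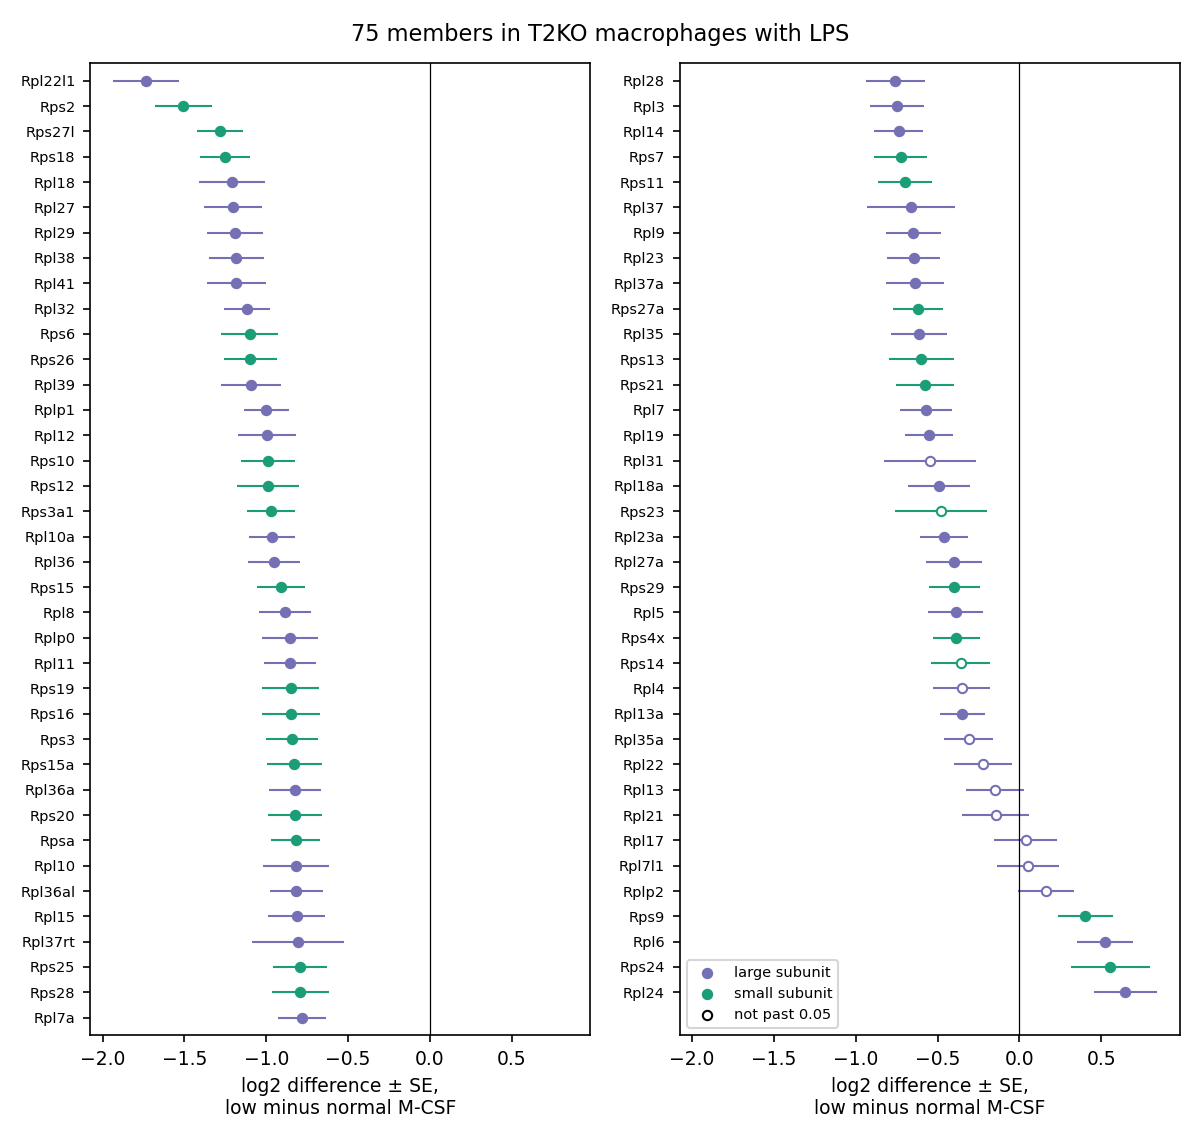
Fitted log2 difference ± SE (horizontal axis) between low and normal M-CSF in T2KO cells with LPS for 75 of the 79 members tested, ordered by size and coloured by subunit, with open points for those not past an adjusted p of 0.05. Rpl34, with few counts and a wide error (-1.06 ± 0.95), is left out, as are 3 members not reported here; Rpl22l1 is lowest at -1.74 and Rpl24 highest at 0.65.

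In the other 3 settings low M-CSF changed fewer members, and mostly downwards. In WT cells without LPS 18 were lower and 2 higher (21.9% and 22.4% of all genes), with a median of -0.23. In WT cells with LPS 17 were lower and 1 higher (24.2% and 21.4% of all genes), with a median of -0.18. T2KO cells without LPS had 22 lower and 1 higher (21.7% and 26.6% of all genes), with a median of -0.16. The share of members that were lower was therefore near that of all genes, and the share that were higher below it. Summed pairs left 2, 3 and 4 members lower and 1, 0 and 0 higher in these 3 settings. Library totals alone gave 61 lower in WT cells with LPS, where they moved the median of all genes from -0.10 to -0.56. Fewer members passed in WT cells without LPS when low library 4 (13) or normal library 1 (11) was left out, in WT cells with LPS without low library 3 (11), and in T2KO cells without LPS without low libraries 2 (12) or 4 (13) or normal libraries 2 (14) or 4 (13).

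Across the 4 medium comparisons, which have no library in common, 7 members were lower each time: Rpl8, Rpl12, Rpl22l1, Rpl38, Rps2, Rps3 and Rps27l. Of all genes 21.7 to 32.8% were lower in a comparison, and how many were lower in all 4 was not counted. Rps27l fell by 1.06 ± 0.14 and 0.95 ± 0.14 in WT cells without and with LPS and by 0.88 ± 0.14 in T2KO cells without LPS (edgeR adjusted p = 1.03e-07, 8.57e-07 and 1.82e-06), and it passed with summed pairs in all 4. Its libraries read 479, 377, 393 and 346 CPM in normal and 205, 181, 201 and 178 CPM in low M-CSF in WT cells, and 486, 460.1, 458 and 460.0 CPM and 272, 218, 306 and 219 CPM in T2KO cells. All 16 low M-CSF libraries, with or without LPS, were below all 16 normal ones for this gene. Rpl8, of the catalytic centre of the large subunit, fell by 0.89 ± 0.16 in WT and 0.72 ± 0.16 in T2KO cells without LPS and passed with summed pairs in both. Rpl12 fell by 0.68 ± 0.18 and 0.77 ± 0.18, and Rps2 by 0.90 ± 0.17 in WT cells with LPS and 0.70 ± 0.17 in T2KO cells without. The falls shared by WT and T2KO cells without LPS numbered 13, or 72.2% of the 18 and 59.1% of the 22. Those shared by T2KO cells without and with LPS numbered 21, or 95.5% of the 22 and 34.4% of the 61. Such overlaps were not counted for all genes, so they are not shown to be particular to the members.

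Few members rose in low M-CSF, and the 6 that did so in at least 1 setting were Rpl6, Rpl13, Rpl24, Rps9, Rps23 and Rps24. Rps9, which sits by the mRNA entry site, stood at 1349, 1021, 895 and 945 CPM in normal and 2167, 3436, 1849 and 2005 CPM in low M-CSF in WT cells without LPS and rose by 1.17 ± 0.17 (edgeR adjusted p = 7.01e-07, 0.00174 with summed pairs). All 4 low libraries were above all normal ones, with library 2 the highest. Rpl13 stood at 1407, 2769, 1733 and 2790.3 CPM against 3656, 4449, 3023 and 3057 CPM and rose by 0.71 ± 0.18 (edgeR adjusted p = 0.00144, 0.0614 with summed pairs). In T2KO cells without LPS these 2 genes had 1017 ± 105 against 1265 ± 183 CPM (SD, n = 4) and 1959.8 ± 132 against 1914 ± 80.7 CPM (SD, n = 4), with log2 differences of 0.31 ± 0.17 and -0.03 ± 0.18 that did not pass. The effect of low M-CSF without LPS differed between the genotypes in 1 member downwards, Rps9 at -0.85 ± 0.24, and 1 upwards, Rps23 at 1.92 ± 0.40 (edgeR adjusted p = 0.0262 and 0.00202; 3.21% and 1.41% of all genes), 0 with summed pairs and 4 in DESeq2. The call for Rps9 was lost without low library 2 of WT, low library 2 or 4 of T2KO, normal library 1 of T2KO, or normal library 3 or 4 of WT. Rps23 fell by 1.04 ± 0.29 in WT (edgeR adjusted p = 0.00301, 0.0762 with summed pairs). It rose by 0.88 ± 0.28 in T2KO cells (edgeR adjusted p = 0.0103, 0.121 with summed pairs), which was lost without low library 2 or 4.

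Whether the fall with LPS differed between the genotypes was tested with a contrast added after the counts above were seen. The difference between the T2KO and the WT effect of low M-CSF passed in 11 of 79 members, all lower in T2KO, against 3.29% of all genes lower and 2.2% higher, and the median member differed by -0.52. The largest were Rps6, the substrate of the S6 kinases, at -1.28 ± 0.25 (edgeR adjusted p = 0.00197), Rpl27 at -1.10 ± 0.25 (0.00716) and Rpl22l1 at -1.04 ± 0.28 (0.0246). The call for Rpl22l1 was lost without low library 1 or 3 of T2KO, low library 2 of WT or normal library 2 of WT. No member passed with summed pairs, 7 passed with RLE factors, and 5 without T2KO low library 1, 6 without low library 3 of T2KO or 4 of WT. Normal libraries 2 and 4 of WT gave 6 when left out, any normal T2KO library gave 7, and WT low library 2 gave 7. Within T2KO cells, the effect of low M-CSF was more negative with than without LPS in 36 members and less negative in 1 (22% and 13.3% of all genes), with a median of -0.56; RLE factors gave 17 and 3, and summed pairs 0. In WT cells the same interaction passed in 4 members downwards and 3 upwards (12.8% and 10.7% of all genes), with library totals in 9 and 1, and with summed pairs in 0. Library totals moved the median of all genes for this WT interaction from -0.14 to -0.47.

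For LPS itself, the direction of the members as a whole depended on the scaling. With TMM factors the median member was 0.27 higher with LPS in WT cells in normal M-CSF, 0.32 in low M-CSF and 0.38 in T2KO cells in normal M-CSF, but with library totals alone it was -0.16, -0.43 and -0.15. Library totals moved the median of all genes in these comparisons as well, from -0.04, -0.18 and -0.05 to -0.47, -0.94 and -0.58. Relative to the median gene the members were therefore higher under both scalings. By count, 12 members were higher and 0 lower in WT cells in normal M-CSF (18.3% and 17.9% of all genes), 28 and 3 in low M-CSF (27% and 33.6%), and 33 and 0 in T2KO cells in normal M-CSF (20.9% and 21.8%). Library totals turned these into 0 higher and 3 lower, 2 and 44, and 0 and 6, and summed pairs left 0, 6 and 0 higher and 0 lower in each.

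In T2KO cells in low M-CSF LPS gave 8 members higher and 19 lower (26.5% and 41% of all genes) and a median of -0.18 beside -0.36 for all genes, so that with TMM factors the members were again above the median gene. Library totals gave 0 higher and 74 lower, RLE factors 9 and 9, DESeq2 9 and 12, and summed pairs 5 and 1, and 17 passed without T2KO low LPS library 1. With library totals the median of all genes was -1.30. The T2KO and WT effects of LPS in low M-CSF differed in 22 members, 19 more negative and 3 more positive in T2KO (8.49% and 7.52% of all genes), with a median of -0.51. That count was 11 to 13 without T2KO LPS library 1, T2KO library 1 or WT library 2 without LPS, or WT LPS libraries 2 or 4, was 36 without T2KO LPS library 4, and was 0 with summed pairs.

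Some members responded to LPS beyond the rest. In low M-CSF Rps23 rose most in WT cells, by 1.43 ± 0.29 (edgeR adjusted p = 5.27e-05, 0.00755 with summed pairs). In T2KO cells its difference was -0.88 ± 0.28 (edgeR adjusted p = 0.00657), which did not pass with summed pairs. Rps24 rose most in T2KO cells, by 1.04 ± 0.24 (edgeR adjusted p = 0.000325, 0.0162 with summed pairs). Both genes were split by library pairs in some of these groups, as given below. In WT cells in low M-CSF Rps6 stood at 278, 211, 264 and 227 CPM without and 423, 677, 379 and 686 CPM with LPS and rose by 1.14 ± 0.18 (edgeR adjusted p = 7.26e-07); every LPS library was above every untreated one. Rpl24 stood at 1032, 869, 979 and 882 CPM against 2338, 1501, 2032 and 1493 CPM and rose by 0.97 ± 0.19 with TMM factors (edgeR adjusted p = 5.42e-05), and in T2KO cells it rose by 0.97 ± 0.19, from 936 ± 154 to 1828 ± 675 CPM (SD, n = 4). With library totals alone the differences of Rpl24 were 0.19 and 0.01, neither past the threshold (edgeR adjusted p = 0.328 and 0.944). That of Rps6 was 0.39 (edgeR adjusted p = 0.0465). Rpl19 rose by 0.89 ± 0.15 and Rpl27 by 0.67 ± 0.18 in the WT cells, which with library totals alone were 0.12 and not past the threshold and -0.08. Rps6, Rpl24, Rpl19 and Rpl27 all passed with summed pairs in WT cells. Rpsa, the laminin receptor precursor of the small subunit, fell by 0.65 ± 0.15, Rpl13 by 0.63 ± 0.18 and Rps9 by 0.60 ± 0.17, which missed the threshold with summed pairs (edgeR adjusted p = 0.054, 0.0748 and 0.0544). In T2KO cells in low M-CSF Rps9 went the other way, from 1489.8, 1221, 1299.9 and 1048 CPM to 2158, 2022, 1732 and 1655 CPM, a rise of 0.58 ± 0.17 with TMM factors (edgeR adjusted p = 0.00267) that turned to -0.37 with library totals alone, and the difference between the genotypes was 1.18 ± 0.24 (edgeR adjusted p = 0.000956, 0.0872 with summed pairs). Rps2 fell by 0.70 ± 0.17 there (edgeR adjusted p = 0.000524), from 164 ± 2.6 to 101 ± 11 CPM (SD, n = 4). Rpl21, Rpl7l1 and Rpl4 rose by 0.79 ± 0.21, 0.72 ± 0.19 and 0.59 ± 0.17 with TMM factors, and with library totals alone they turned to -0.16, -0.23 and -0.36.

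In normal M-CSF the rises with LPS were up to 0.65 ± 0.20 for Rpl18 in WT cells and 0.75 ± 0.21 for Rpl21 in T2KO cells (edgeR adjusted p = 0.00842 and 0.0032). Neither passed with summed pairs, and Rpl18 was lost without untreated library 1. Counts in this medium were 2 in WT cells without LPS library 1 or untreated library 4, 3 without LPS library 3 or untreated library 2, 5 without untreated library 3 and 6 without LPS library 2. They were 7 when T2KO low library 3, T2KO normal library 2 or 3, or WT low library 1 or 4, all without LPS, was left out, while T2KO cells had 21 and 17 without untreated library 1 or 3. In low M-CSF the WT count of 31 was 15 to 20 without LPS library 2, any of untreated libraries 2, 3 and 4, or normal M-CSF library 2 without LPS.

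**Figure D3:**
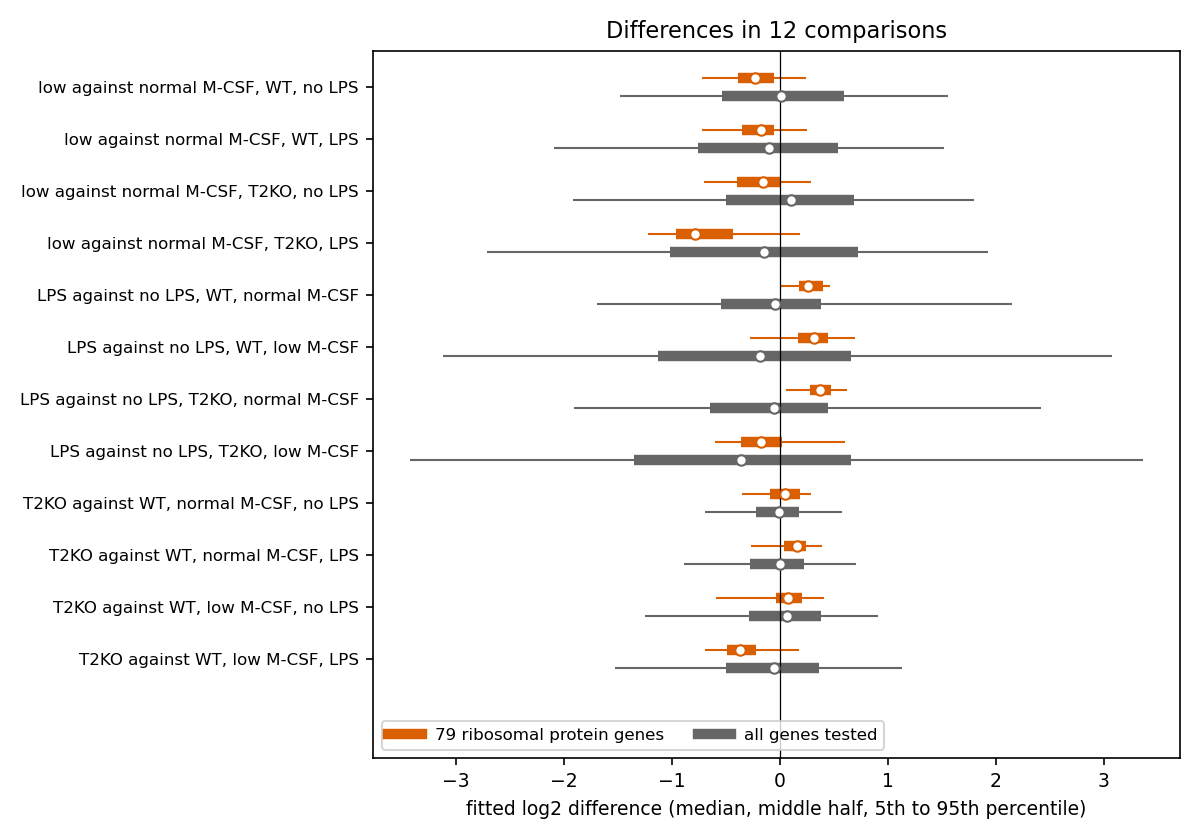
Fitted log2 differences (horizontal axis) in the 12 comparisons of 2 groups for the 79 members and all 11244 genes tested: circles are medians, thick bars the interquartile range and thin bars the 5th to 95th percentile. The members form a narrow band, furthest from 0 at -0.78 for low against normal M-CSF in T2KO cells with LPS; with library totals in place of TMM factors the medians above 0 for LPS fall below it.

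Between T2KO and WT cells few members differed in normal M-CSF. Without LPS 0 of 79 passed in edgeR (0.747% of all genes were higher and 1.11% lower) and 0 in DESeq2, and 6 had an unadjusted p under 0.05 in edgeR; in 1 member every T2KO library was above and in 2 below every WT one (3.99% and 4.59% of all genes). With LPS in normal M-CSF 1 passed, against 1.98% and 2.05% of all genes: Rpl6, at 1760.4, 2242, 1779 and 2116 CPM in WT and 1408, 1394, 1235 and 1272 CPM in T2KO cells, with a difference of -0.57 ± 0.17 (edgeR adjusted p = 0.049). In 11 members every T2KO library was above and in 3 below every WT one (7.52% and 6.73% of all genes). The groups of Rpl6 did not overlap, yet the call was lost when any of the 8 libraries compared was left out, or any of 8 others (T2KO low library 4, T2KO normal libraries 1, 2 and 3, WT low libraries 1, 3 and 4 and WT normal library 3, each without LPS), and with summed pairs (edgeR adjusted p = 0.55).

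In low M-CSF without LPS 2 members were higher and 6 lower in T2KO cells (7.74% and 8.97% of all genes), and 5 passed without T2KO library 1 or WT library 2. RLE factors gave 1 higher and 6 lower and library totals 1 and 5. The groups did not overlap in 5 members upwards and 6 downwards (11.4% and 10.3% of all genes). Rps9 differed most among the lower ones, with 2167, 3436, 1849 and 2005 CPM in WT and 1489.8, 1221, 1299.9 and 1048 CPM in T2KO cells, a fall of 0.90 ± 0.17 (edgeR adjusted p = 0.000134), and it was the 1 member left with summed pairs (0.0264). Rpl13 fell by 0.89 ± 0.18, Rpsa by 0.70 ± 0.15 and Rpl7l1, a nucleolar relative of Rpl7, by 0.66 ± 0.19. Rps23 was 1.33 ± 0.29 higher (edgeR adjusted p = 0.00089, 0.08 with summed pairs), which rested on libraries 2 and 4 of the T2KO group. Rps27l was 0.41 ± 0.14 higher, with 191 ± 13.5 in WT and 254 ± 43.2 CPM (SD, n = 4) in T2KO cells, a call lost without T2KO library 1 or 3 or WT library 2 or 4.

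In low M-CSF with LPS 21 members were lower and 0 higher in T2KO cells (10.9% and 8.2% of all genes), 11 of the large and 10 of the small subunit, and the median member differed by -0.37 beside -0.05 for all genes. In 18 members every T2KO library was below every WT one and in 0 above (7.97% and 7.6% of all genes). Rps6 stood at 423, 677, 379 and 686 CPM in WT and 275, 281, 261 and 259.8 CPM in T2KO cells and fell by 1.01 ± 0.18 (edgeR adjusted p = 9.31e-05, 0.054 with summed pairs). WT libraries 2 and 4 were higher than 1 and 3, and every T2KO library was below all of them. Rps2 stood at 196, 176, 180.2 and 229.7 CPM against 97, 100, 90.6 and 117 CPM, without overlap, and fell by 0.95 ± 0.17 (edgeR adjusted p = 0.000159, 0.055 with summed pairs). Rps18 fell by 0.73 ± 0.15, Rps26 by 0.68 ± 0.16 and Rps23 by 0.99 ± 0.29, the last lost without T2KO library 1 or 3 or WT library 1. The count was 10 without T2KO library 1, 13 without T2KO library 3, 12 and 11 without WT libraries 2 and 4, and 35 without T2KO library 4. No member passed with summed pairs, and library totals gave 51 lower while the median of all genes was -0.22. Among the same groups, neutrophil markers summed to 163 to 188 CPM in WT and 208 to 363 CPM in T2KO cells, and their part in the difference was not tested.

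Several members took 2 levels within a group, split by the library pairs. Rps23, which sits in the decoding centre, read 963, 3554, 952 and 3187 CPM in T2KO cells in low M-CSF, where libraries 2 and 4 averaged 3.51 times libraries 1 and 3. It read 3200.2, 1619, 2936 and 1565 CPM in WT cells in low M-CSF with LPS, where the higher pair was 1 and 3, and 921, 843, 857 and 827 CPM without LPS, where all 4 were close. Rps24 was split in T2KO cells in low M-CSF with LPS, as given above, by a factor of 3.61, and lay between 1031 and 1859 CPM in the other groups and the lower pair. Counting members with a mean of at least 100 CPM, the pair means differed by over 1.5 times in 19 of 76 in WT cells in low M-CSF with LPS (25%, beside 32.8% of 1919 other genes) and in 13 of 76 in T2KO cells in low M-CSF with LPS (17.1%, beside 12.6%). In the other 6 groups 0 to 6 members did so (0 to 7.89%), beside 9.33 to 31.4% of the other genes. The split was therefore not particular to the members. What the paired libraries share is not stated in the labels.

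**Figure D4:**
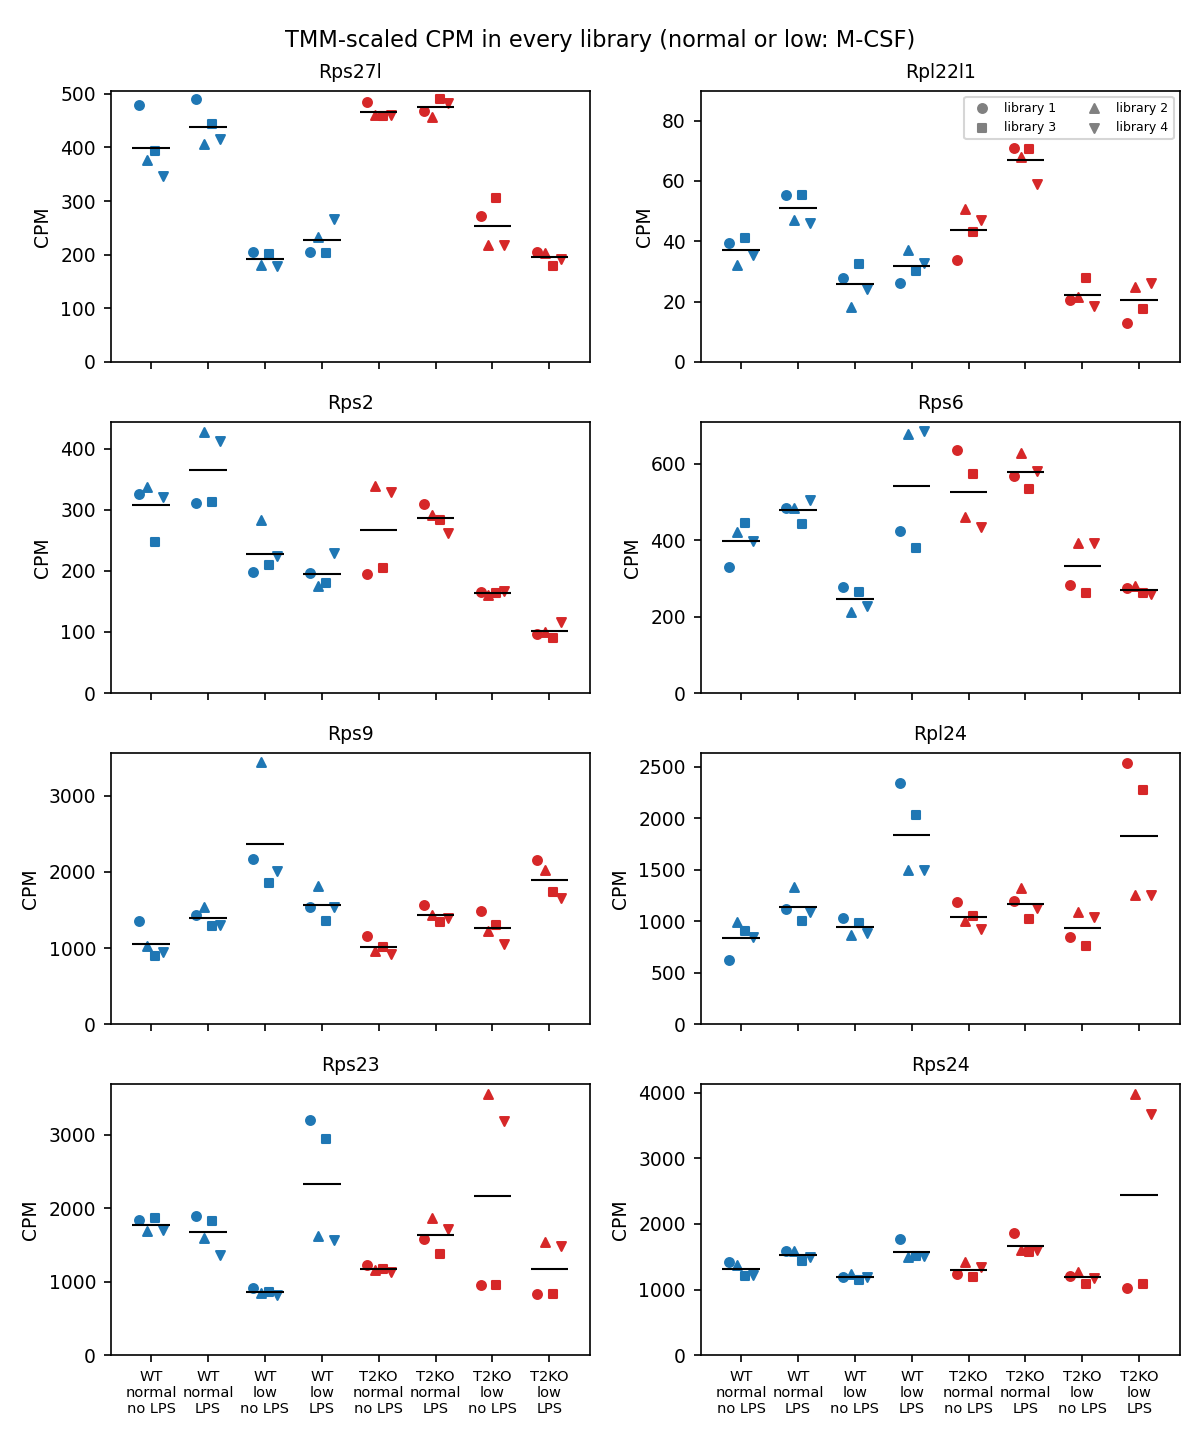
CPM scaled by TMM (vertical axis, from 0) of 8 members in each of the 32 libraries; bars are group means, colours the genotype and marker shapes the library number. Rps27l, Rpl22l1 and Rps2 are lower in low M-CSF, and Rps23 and Rps24 split into libraries 1 and 3 against 2 and 4, by up to 3.61 times.

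Paralogs with diverging values were compared within their own change, not by level. Rpl22l1 fell in all 4 medium comparisons, while Rpl22, which represses Rpl22l1 in other cells, differed by -0.36 ± 0.18, 0.26 ± 0.18, -0.06 ± 0.18 and -0.22 ± 0.18 and passed in none of them. Rpl36a and its autosomal copy Rpl36al fell by 0.82 ± 0.16 and 0.82 ± 0.16 in T2KO cells with LPS. Without LPS Rpl36al fell by 0.62 ± 0.16 in WT and 0.44 ± 0.16 in T2KO cells, and Rpl36a had 0.03 ± 0.16 and -0.35 ± 0.16, neither past the threshold. Rpl7 fell by 0.57 ± 0.16 in T2KO cells with LPS and Rpl7l1 had 0.05 ± 0.19, which did not pass; these differences between paralogs were not tested. Rpl34 and Rpl35a were among the members that passed in none of the 12 comparisons of 2 groups.

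Other genes of the translation machinery were set beside the members from lists chosen with earlier results in view. In T2KO cells with LPS, low M-CSF lowered 15 and raised 1 of 21 other TOP genes (median -0.70), where 32.8% of all genes were lower and 26.5% higher, among them Naca, of the nascent chain complex, by 1.29 ± 0.14 and Eef1d, an elongation factor subunit, by 1.40 ± 0.17; Pabpc1, the poly(A)-binding protein, rose by 0.87 ± 0.16. Mitochondrial ribosomal proteins, encoded by a separate gene family, had 69 of 78 lower and 0 higher (median -1.19), with Mrpl28 lowest in adjusted p at -2.93 ± 0.25. In WT cells without LPS 54 of these 78 were lower and 1 higher (median -0.64), as against 18 of 79 members and 21.9% and 22.4% of all genes. Ribosome assembly genes had 20 of 45 lower and 7 higher (median -0.35), initiation factors 10 of 27 lower and 5 higher, and snoRNA host genes 3 of 9 lower. The shares of the last 2 lists that were lower, 37% and 33.3%, were near the 32.8% of all genes. Fbl, the rRNA methyltransferase, fell by 1.83 ± 0.18, and Eif3i by 1.76 ± 0.16, while Eif5b rose by 1.42 ± 0.24. With LPS in WT cells in low M-CSF 27 of 45 assembly genes were higher and 3 lower (median 0.87), with Rrs1 up by 3.07 ± 0.18 (edgeR adjusted p = 1.11e-17), and 17 of 27 initiation factors were higher and 1 lower (median 0.77), where 27% of all genes were higher and 33.6% lower. Library totals alone gave 11 higher and 11 lower assembly genes (median 0.10) and 9 higher and 11 lower initiation factors (median -0.01). In low M-CSF with LPS, T2KO cells had 13 of 21 TOP genes, 19 of 45 assembly genes and 31 of 78 mitochondrial ribosomal genes lower than WT cells, and 0 higher in each list, where 10.9% of all genes were lower and 8.2% higher. With summed pairs 0, 8 and 4 were lower.

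**Figure D5:**
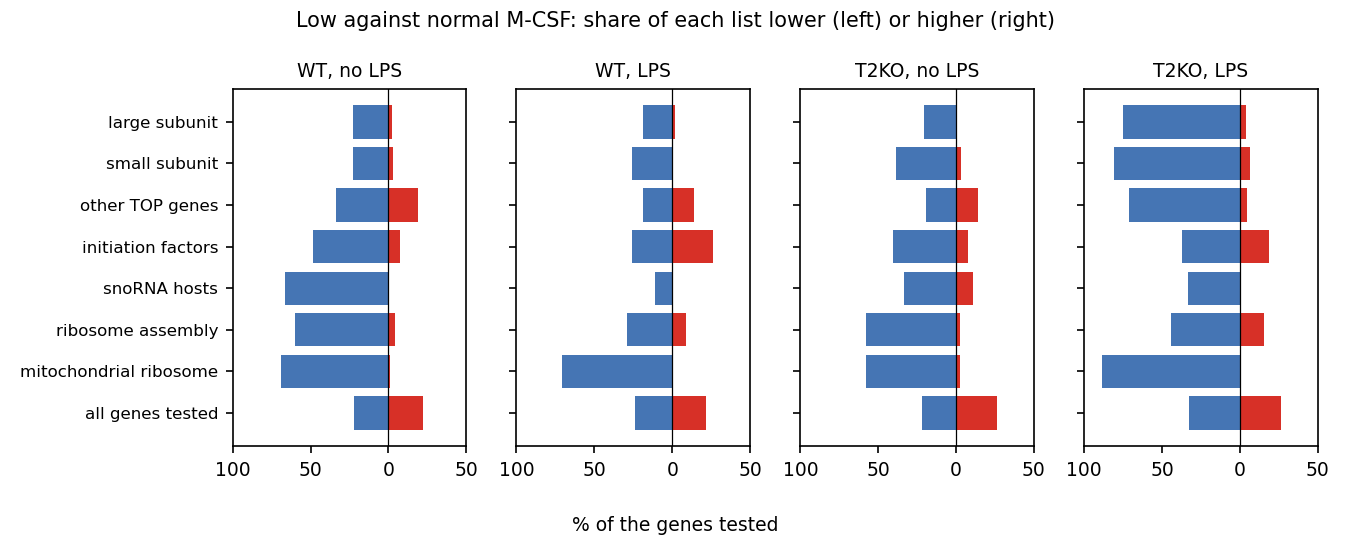
Share of the genes tested (%, horizontal axis) that were lower (left, blue) or higher (right, red) in low than in normal M-CSF at an edgeR adjusted p under 0.05, for the members by subunit, other lists of the translation machinery and all genes. The members reach 75% and 80.6% lower in T2KO cells with LPS and 18.8 to 38.7% in the other 3 settings, and the mitochondrial ribosomal proteins 57.7 to 88.5%.

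Genes described as controllers of ribosomal protein genes or their mRNAs moved in their own ways at the mRNA level. Whether they act on the members in these cells was not tested. Larp1, which holds TOP mRNAs, rose with LPS by 1.41 ± 0.19 and 2.83 ± 0.20 in WT cells in normal and low M-CSF and by 1.49 ± 0.20 and 3.01 ± 0.21 in T2KO cells. With LPS it was 1.2 ± 0.19 higher in low than in normal M-CSF in WT cells and 1.55 ± 0.20 in T2KO cells, and without LPS it had -0.23 ± 0.19 and 0.03 ± 0.19, which did not pass. Myc fell in low M-CSF without LPS by 2.67 ± 0.33 in WT and 3.55 ± 0.35 in T2KO cells (edgeR adjusted p = 3.85e-08 and 9.8e-11) and with LPS by 0.91 ± 0.31 in T2KO cells. Eif4ebp1, an mTORC1 target that restrains cap-dependent translation, fell by 2.22 ± 0.21 in T2KO cells with LPS and by 1.29 ± 0.22 in T2KO against WT cells in low M-CSF with LPS. Mtor differed by -0.13 ± 0.22 and Rps6kb1, the S6 kinase, rose by 0.44 ± 0.15 in the same medium comparison, which turned to -0.12 with library totals alone. Of 12 genes of the p53 pathway 7 were lower and 2 higher there (32.8% and 26.5% of all genes), the latter Cdkn1a, the cell cycle inhibitor p21, at 2.04 ± 0.21 and Mdm4 at 1.10 ± 0.28.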

How the data were processed

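RNA of 32 libraries was read from the 3' end with barcoded oligo-dT primers and 12 PCR cycles, per the labels' protocols, which mention no molecular identifiers, so PCR copies count as reads. The deposited values are raw read counts for each gene. The submitters' processing notes name STAR, HTSeq, DESeq2 and mm10, while the annotation and the strand setting are not given in the sources used here. Of 24885 identifiers 23969 (96.3%, holding 99.5% of the counts) were matched to symbols. Libraries held 3068863 to 15585423 counts (median 5596111), and 3 counts, the limit set by a count of 0, equal 0.192 to 0.978 CPM. This limit covers counting error only, while the SD and SE given with values include the spread between libraries.

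From the counts, all 8 groups were fitted in one edgeR 4.0.16 quasi-likelihood model (R 4.3.3, TMM factors, filterByExpr, no covariate, two-sided). P-values were adjusted by Benjamini-Hochberg over 11244 genes, and the threshold was 0.05. Rpl30 and Rps27 did not pass the count filter, which left 79 members, and SE is the log2 difference divided by the root of F. A test on simulated data preceded the fits. Levels are CPM scaled by TMM. Alternatives were RLE factors, library totals alone, no count filter, DESeq2 1.42.0, a replicate block, each library left out, libraries summed in pairs (1 with 3 and 2 with 4), and, added after seeing the data, scaling to the summed members. The interaction of genotype and medium with LPS was added after seeing the data too.

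The members and lists were chosen with earlier results of these data known. Some genes are not reported here. Named are Trem2, up to 5 members with the largest rise and fall per comparison, examples of the role lists, up to 3 genes per direction of each other list by adjusted p, and Larp1, Mtor, Myc, Rps6kb1 and Eif4ebp1. Overlaps are given only between medium comparisons, which have no library in common. Other comparisons, such as those of medium and of LPS in one genotype, can share libraries, so no overlap is given between those. Motifs were searched in RefSeq sequence of GRCm38.p6 with 250 bases before and 50 after each start.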

Additional observations from a re-analysis of the deposited data

Results flagged for a closer look

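Of 136 groups of 4 values examined (15 members, the members' shares and the ratio of subunits), 3 held a library far from the others, and chance alone gives about 1 in 20. The gap over the range was 0.926 for Rps27l in T2KO cells in normal M-CSF without LPS, where library 1 was the high one, 0.903 for Rps24 in WT cells in low M-CSF with LPS, again library 1, and 0.875 for Rps24 in T2KO cells in normal M-CSF with LPS, also library 1.

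Effects that differed between groups by the interaction test of edgeR were these, as log2 differences with an adjusted p under 0.05; no member passed in any of the 5 interactions with libraries summed in pairs. The effect of LPS in low minus that in normal M-CSF in WT cells passed in 7 members, among them Rps23 1.52, Rps6 0.87, Rpl19 0.64, Rps9 -1.0, Rpl13 -0.91 and Rpsa -0.79. In T2KO cells it passed in 37, of which Rpl24 had 0.80, Rps23 -1.36, Rpl10 -1.17, Rpl23 -0.94 and Rpl41 -0.91. The effect of low M-CSF without LPS differed between T2KO and WT in 2 members, Rps23 at 1.92 and Rps9 at -0.85 (1.41% of all genes higher and 3.21% lower); 1 passed without T2KO low library 2 or 4, T2KO normal library 1, WT low library 2 or WT normal library 3. The effect of LPS in low M-CSF differed between the genotypes in 22 members, with Rps9 at 1.18, Rpl13 1.0, Rpsa 0.79, Rps23 -2.32, Rps6 -1.44, Rpl31 -1.30, Rpl10 -0.91 and Rpl19 -0.89. The effect of low M-CSF with LPS differed in 11, with Rps6 at -1.28, Rpl27 -1.10, Rpl22l1 -1.04, Rpl10a -0.92 and Rpl18 -0.91. The call for Rpl18 (edgeR adjusted p = 0.0485) was lost in 28 of the 32 fits without 1 library and that for Rpl22l1 in 4, while Rps6, Rpl27 and Rpl10a were lost in 0. Leaving out 1 library also ended the calls for Rpl19 (4 fits) in the first of these interactions, Rpl24 (4) in the second, Rps9 (6) in the third, and Rpl31 (6) and Rpl10 (6) in the fourth.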

How the results depend on the processing

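Counts of members past the threshold are given here without direction. With libraries summed in pairs they were 3, 3, 4 and 42 for low against normal M-CSF (WT and WT with LPS, T2KO and T2KO with LPS), 0, 6, 0 and 6 for LPS (WT normal, WT low, T2KO normal, T2KO low), 0, 1 and 0 for genotype (normal with LPS, low, low with LPS) and 0 for all 5 interactions; these fits have 2 samples a group. Library totals alone gave 61 for medium in WT cells with LPS, 3, 6 and 74 for LPS (WT normal, T2KO normal, T2KO low), 51 for genotype in low M-CSF with LPS, and 65 and 40 for the interactions of medium and LPS in T2KO cells and of genotype and LPS in low M-CSF. In these 2 interactions library totals moved the median of all genes from -0.28 and -0.13 to -0.70 and -0.31. The 65 and 40 therefore also hold a shift of all genes, and the share of all genes called is not given. RLE factors gave 3 for LPS in WT normal M-CSF, 0 for genotype in normal M-CSF with LPS, 20 for medium and LPS in T2KO cells and 7 for genotype and medium with LPS. Without the count filter they were 13 for medium in T2KO cells, 3, 19 and 20 for LPS (WT normal, WT low, T2KO normal), 0 for genotype in normal M-CSF with LPS, 1 for genotype and medium without and 7 with LPS. Scaled to the summed members they were 38 for medium in T2KO cells with LPS, 0, 13 and 4 for LPS (WT normal, WT low, T2KO normal), 0 and 7 for genotype with LPS (normal, low), and 8, 8 and 3 for the interactions of medium and LPS in T2KO cells, genotype and LPS, and genotype and medium with LPS. DESeq2 gave 4 for genotype and medium without LPS. The cause was not tested.

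Directions turned with library totals alone in Rpl6 (-0.029) and Rps9 (-0.15) for medium in T2KO cells with LPS, Rpl27 (-0.084) for LPS in WT low M-CSF, and Rpl21 (-0.16), Rpl7l1 (-0.23), Rpl4 (-0.36) and Rps9 (-0.37) for LPS in T2KO low M-CSF, and outside the members in Rps6kb1 (-0.12) for medium in T2KO cells with LPS. The median member turned to -0.16, -0.43 and -0.15 for LPS in WT normal, WT low and T2KO normal M-CSF, and to -0.015 for the first of these when scaled to the members.

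Leaving out 1 library gave 11 to 20, 11 to 22, 12 to 23 and 56 to 65 for medium, 2 to 17, 15 to 32, 17 to 35 and 17 to 34 for LPS, 0 to 0, 0 to 1, 5 to 8 and 10 to 35 for genotype (normal, normal with LPS, low, low with LPS), and 5 to 9, 25 to 43, 1 to 3, 11 to 36 and 5 to 15 for the interactions (medium and LPS in WT and T2KO, genotype and medium without LPS, genotype and LPS, genotype and medium with LPS). Of the 97 values for single members, DESeq2 kept 95 past the threshold, RLE factors 91, the replicate block 92, no count filter 89, scaling to the members 78, library totals alone 70 (with 6 turned in direction) and summed pairs 26.

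The replicate numbers were not shown to pair the libraries: deviations of same-numbered libraries correlated at -0.305 to 0.269, in 0 of 12 comparisons were all correlations above 0.1, and 13 of 48 libraries correlated best with their own number. With the replicate block the counts were 20, 17, 23 and 62 for medium, 10, 28, 32 and 25 for LPS, 0, 0, 8 and 18 for genotype and 7, 34, 2, 18 and 8 for the interactions, so that 1 call, Rpl6 between genotypes, was lost in a count that moved over 1.5 times.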
